A study of Mus musculus with 28 samples.

Results

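The Hox cluster genes were examined across 9 groups of mouse cells from a study of chemical reprogramming of fibroblasts toward the endoderm. They were taken from the expression tables as every row whose gene symbol is Hoxa, Hoxb, Hoxc or Hoxd followed by a number. This gave 39 genes of 31673: 11 in the Hoxa cluster, 10 in Hoxb, 9 in Hoxc and 9 in Hoxd. RNA sequencing of 28 libraries gave, for each gene, an estimated read count and a level in TPM, a gene's share of all transcripts after scaling by gene length, which can be compared between genes.

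The starting cells were MEF, fibroblasts of E13.5 embryos (3 libraries, passage 2), and MNF, dermal fibroblasts of newborn mice (2 libraries, passage 2). The reprogrammed cells that the labels call ciEPC came from MEF as 2 numbered series. Series 1 was sequenced at passages 2, 3, 4, 6, 10 and 22 and series 2 at passages 1, 5, 10 and 22. Those from MNF had 2 libraries, at passages 2 and 3, whose source name reads MEF in conflict with their title and cell type. The cells called ciHep were derived from ciEPC of passages 3 to 10 (3 libraries from MEF, 2 from MNF). The reference groups were 2 libraries each of ESC (OG2 embryonic stem cells, passage 5), ESC_EPC (made from embryonic stem cells of passages 10 to 15) and pHep (hepatocytes from adult liver, passage 0). Every group carries the Oct4-GFP transgenic allele on CBA/CaJ X C57BL/6J. MEF, ESC and the cells made from either have an added cross to 129Sv/Jae females, and MNF, the cells made from MNF and pHep do not. Tissue, age and cross therefore cannot be told apart in any comparison of MEF with MNF cells. The labels list no compounds or doses and do not say whether replicates were separate cultures, so p-values measure only the spread between these samples, which may be technical.

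Hox genes encode homeodomain transcription factors that give cells their position along the body. Within a cluster the genes lie in the order in which they are used from head to tail: low numbers act in the hindbrain and neck, middle numbers in the trunk, and high numbers in the lower trunk, tail, genitalia and distal limb. Cultured fibroblasts keep a Hox pattern that reflects their site of origin. In embryonic stem cells Polycomb complexes hold the clusters silent, and retinoic acid and Cdx factors act as inputs that open them. Adult hepatocytes express few Hox genes.

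In mm10 coordinates from GENCODE M21, the Hoxa genes lie on the minus strand of chromosome 6 (52155590 to 52260880). The Hoxb genes lie on the plus strand of chromosome 11 (96194316 to 96368256), the Hoxc genes on the plus strand of chromosome 15 (102921103 to 103036852) and the Hoxd genes on the plus strand of chromosome 2 (74668310 to 74765142). Exons of 8 members overlap another gene on the same strand and those of 10 overlap one on the other strand. The use of strand in counting is not given in the sources used here, so values of these members are uncertain. Among them are Hoxa3 (with Hoxaas2 and Hoxaas3), Hoxa11 (Hoxa11os) and the pairs Hoxd3 with Hoxd4 and Hoxc5 with Hoxc10.

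The sequences upstream of RefSeq starts of 4 adjoining Hoxa genes are shown because these include the Hoxa genes highest in MEF-derived ciEPC. Hoxa7 was called lower than in MEF, and Hoxa9, Hoxa10 and Hoxa11 did not pass the test. The difference between them was not tested. Each is the 250 bases before the RefSeq start (GRCm38.p6, which is mm10), 5′ to 3′ on the minus strand of chromosome 6. They lie at chr6:52218574-52218823 for Hoxa7, chr6:52227371-52227620 for Hoxa9, chr6:52240855-52241104 for 1 of the Hoxa10 starts, and chr6:52245811-52246060 for Hoxa11. The Hoxa7 and Hoxa9 windows lie within the GENCODE spans of those genes (52214491 to 52221854 and 52223100 to 52231089). Capitals mark matches to TTTATG, letters that Cdx factors are known to bind.
Hoxa7: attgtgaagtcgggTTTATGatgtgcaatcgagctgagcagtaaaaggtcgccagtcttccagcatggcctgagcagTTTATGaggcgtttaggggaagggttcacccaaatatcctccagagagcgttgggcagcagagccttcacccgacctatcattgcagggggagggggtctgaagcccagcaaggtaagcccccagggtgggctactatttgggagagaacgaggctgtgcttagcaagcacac
Hoxa9: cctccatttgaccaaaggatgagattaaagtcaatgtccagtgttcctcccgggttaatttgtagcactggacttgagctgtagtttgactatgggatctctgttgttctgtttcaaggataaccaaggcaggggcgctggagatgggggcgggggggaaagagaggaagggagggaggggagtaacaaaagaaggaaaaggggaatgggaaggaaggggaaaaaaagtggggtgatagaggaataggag
Hoxa10: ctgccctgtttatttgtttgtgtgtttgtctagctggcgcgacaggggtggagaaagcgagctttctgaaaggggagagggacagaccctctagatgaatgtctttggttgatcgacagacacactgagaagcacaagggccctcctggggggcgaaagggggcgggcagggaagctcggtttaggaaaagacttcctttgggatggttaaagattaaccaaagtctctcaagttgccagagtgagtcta
Hoxa11: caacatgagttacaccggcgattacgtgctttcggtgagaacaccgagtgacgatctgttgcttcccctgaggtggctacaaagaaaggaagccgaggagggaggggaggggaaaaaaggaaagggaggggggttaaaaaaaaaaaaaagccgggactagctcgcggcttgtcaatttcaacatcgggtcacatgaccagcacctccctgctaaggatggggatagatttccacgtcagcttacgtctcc
Hoxa7 holds 2 of these matches and the other 3 sequences hold none on either strand. Upstream sequences were found for 22 of the 39 genes, as 24 windows, and 5 of the 24 hold TTTATG against 10.8% of all 32851 windows. TGACAG, letters known for Meis factors, is in 2 of the 24 and in 15.9% of all windows. TGATTNAT, known for Hox and Pbx together, is in 2 of the 24 and in 2.82% of all windows. CpG dinucleotides number 7 in the Hoxa7 window, 3 in Hoxa9, 7 in the Hoxa10 window shown and 13 in Hoxa11. The other Hoxa10 window holds 20. The median is 12.5 over the Hox windows and 6 over all windows.

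Library totals ran from 1439670 to 6133150 counts. Gene lengths and effective lengths in the files imply reads or fragments of 74.3 to 74.5 bases for ESC, MNF_ciEPC and the fibroblasts. The implied length is 49.5 to 50.6 for pHep, the ciHep cells and MEF_ciEPC, and 187 to 196 for ESC_EPC. These classes are crossed by MEF_ciEPC and MEF_ciHep against MEF, and by MNF_ciHep against MNF and against MNF_ciEPC. MNF_ciEPC against MEF_ciEPC and ESC_EPC against ESC cross them too. The change from fibroblast to ciEPC crosses them in the MEF line alone, and that from ciEPC to ciHep in the MNF line alone. Read length and origin therefore cannot be told apart where these changes are compared between lines. The label ciHep was not borne out by markers in the MNF line. The 12 hepatocyte markers summed to 147 and 299 TPM in the MNF_ciHep libraries, against 15053 to 38629 in MEF_ciHep and 38784 to 44783 in pHep. Albumin was listed at 0 and 0.56 TPM there, and 5 and 3 of the 12 markers were at 0. The 20 fibroblast markers, none at 0, summed to 9335 and 6247 TPM in MNF_ciHep, against 42987 to 45785 in MNF and 741 to 842 in MEF_ciHep. The MEF_ciEPC library of series 2 at passage 22 also stood apart: it held Pou5f1 at 1908 TPM and Sox17 at 1.27 TPM (437 to 1287 in the other 9). The counts of Hox members detected in MEF_ciEPC and called against MEF are also given without it. In bulk RNA, fewer cells expressing a gene and less RNA per cell cannot be told apart.

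Fibroblasts held most Hox genes at 1 TPM or more, ciEPC held fewer at this level, and the ciHep cells of the 2 origins stood far apart. Counting members at 1 TPM or more in every library of a group, MEF had 33, MNF 28, MNF_ciHep 29, MNF_ciEPC 12, ESC 6, MEF_ciEPC 5, ESC_EPC 5, MEF_ciHep 1 and pHep 0. In all, 36 of the 39 reached this in at least 1 group, and Hoxb1, Hoxd1 and Hoxd12 did not. The rule spans 10 libraries in MEF_ciEPC and 2 or 3 in the other groups, so these counts are not comparable across them. A single MEF_ciEPC library held 14 to 23 members at 1 TPM and a single MNF_ciEPC library 15 to 16. The 5 members of MEF_ciEPC were Hoxa7, Hoxa9, Hoxa10, Hoxc6 and Hoxc9, and there were 7 without the passage 22 library of series 2, with Hoxa11 and Hoxb7 added. The 12 of MNF_ciEPC came from all clusters: Hoxa7, Hoxa10, Hoxb4, Hoxb7, Hoxb9, Hoxb13, Hoxc5, Hoxc6, Hoxc9, Hoxd4, Hoxd8 and Hoxd9.

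**Figure D1:**
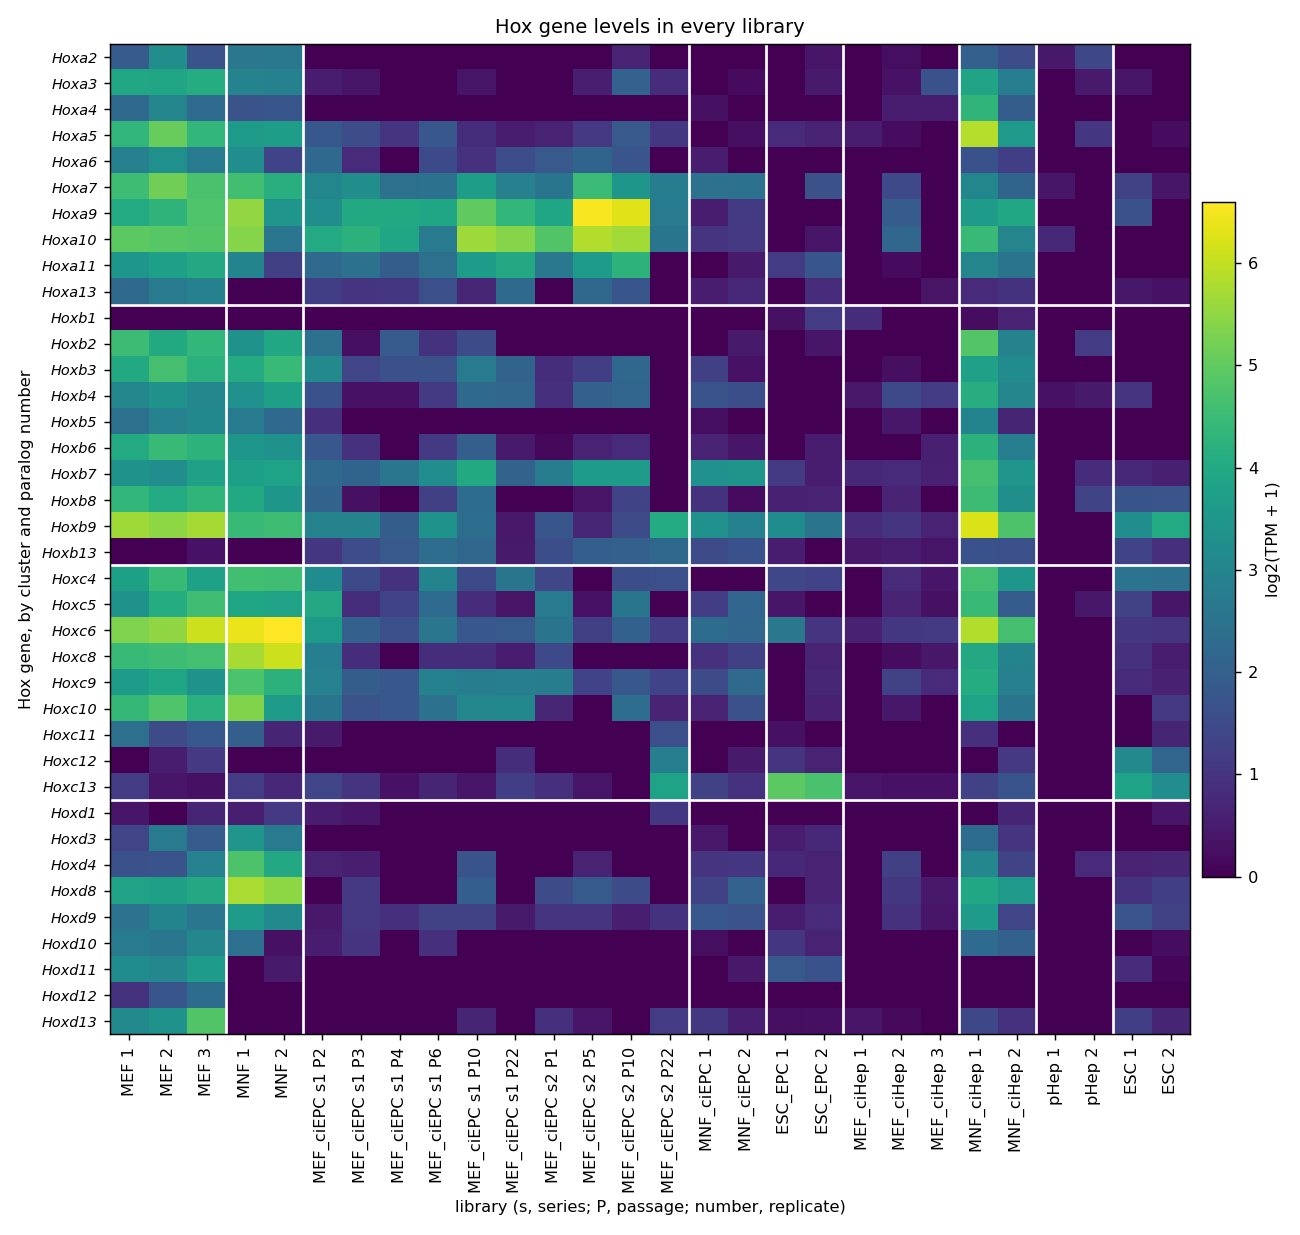
Level of the Hox genes (rows, by cluster and number) in each of the 28 libraries (columns), as log2(TPM + 1) by colour. The MEF, MNF and MNF_ciHep columns are filled over most of the 4 clusters, with sums of 437 to 544, 476 and 600, and 224 and 545 TPM, while the MEF_ciHep and pHep columns are nearly empty.

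The summed level of all members was 499 ± 55.4 TPM in MEF (SD, n = 3) and 538 ± 87.9 in MNF (n = 2). It was 127 ± 57.0 in MEF_ciEPC over its 10 libraries (65.1 to 219, median 109) and 52.0 ± 3.31 in MNF_ciEPC (n = 2). The MEF_ciHep sum was 13.4 ± 9.11 (n = 3), that of pHep 5.54 ± 5.10 (n = 2) and that of MNF_ciHep 385 ± 227, with libraries at 545 and 224 (n = 2). The fibroblast sums did not overlap those of either ciEPC group, and the MNF_ciHep sums did overlap the MNF range of 476 to 600. ESC and ESC_EPC had sums of 50.2 ± 6.34 and 53.9 ± 4.84 TPM (n = 2 each).

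The clusters did not share these sums evenly. MEF drew 30.6% of its Hox TPM from Hoxa, 29.6% from Hoxb, 28.3% from Hoxc and 11.6% from Hoxd, whereas MNF drew 44.5% from Hoxc and 16.6% from Hoxd. In MEF_ciEPC 58.3% came from Hoxa (31.0 to 87.2% over the libraries) and 2.63% from Hoxd. In MNF_ciEPC the leading cluster was Hoxb, at 45.4%. The genes numbered 9 to 13 held 38.0% of the MEF sum and 66.9 ± 12.3% of the MEF_ciEPC sum (SD, 10 libraries).

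**Figure D2:**
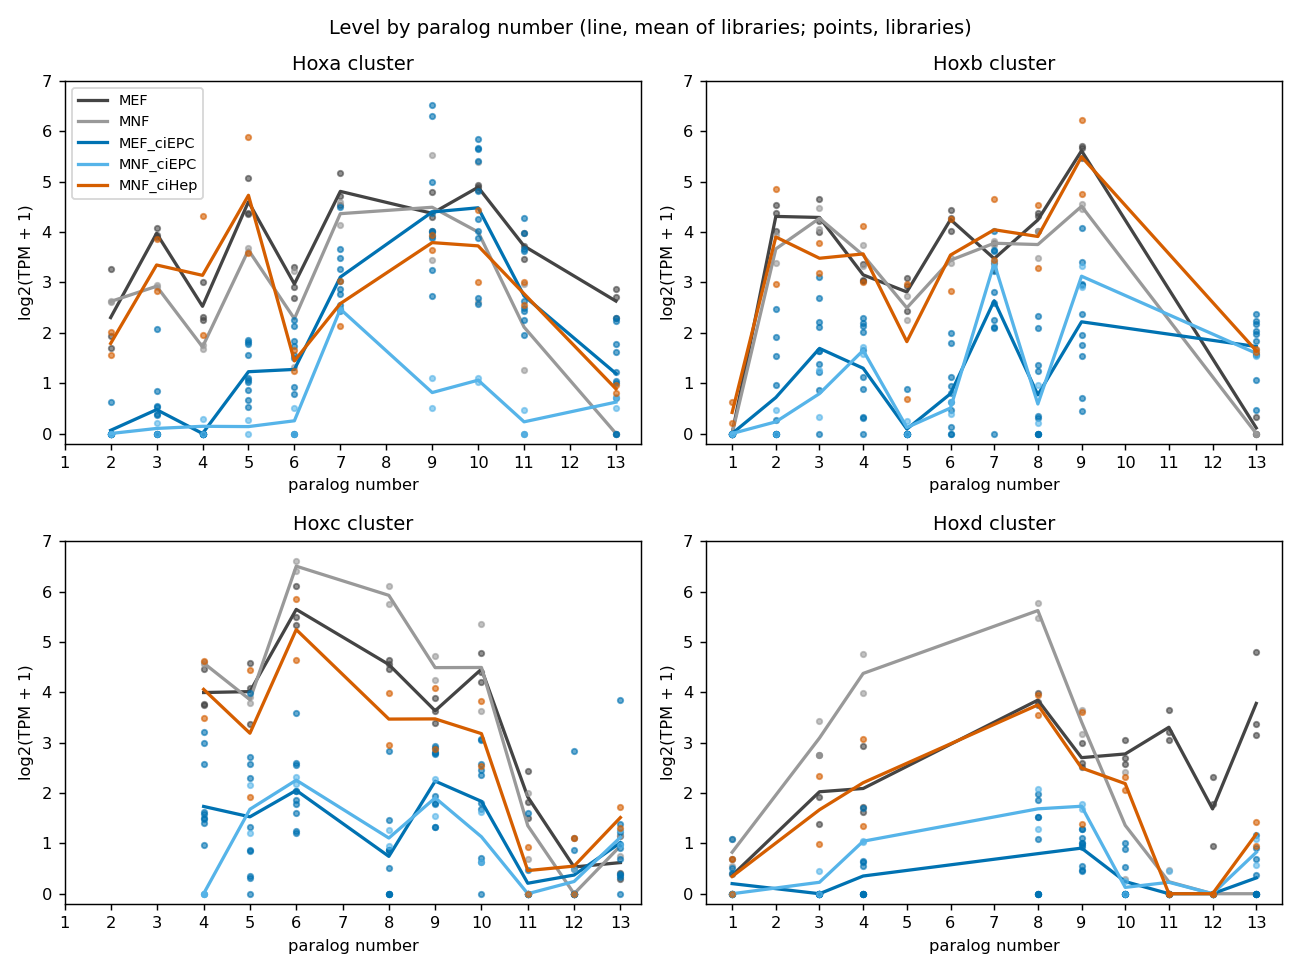
Level, log2(TPM + 1), against paralog number in each cluster for the 5 groups MEF, MNF, MEF_ciEPC, MNF_ciEPC and MNF_ciHep, with a line through group means and a point per library. The MEF_ciEPC line meets the fibroblast lines at Hoxa9 and Hoxa10 and lies below them at most other numbers, and the MNF_ciHep line lies near the fibroblast lines over most of each cluster.

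The gene with the highest group mean in each cluster shows the pattern across groups. Hoxa5, which patterns the neck to thorax and the lung, stood at 19.5, 32.7 and 19.7 TPM in MEF and 11.2 and 11.8 in MNF. It was 0.44 to 2.62 (median 1.13) in MEF_ciEPC and 0 and 0.21 in MNF_ciEPC. In ciHep it was 0.44, 0.17 and 0 from MEF but 57.9 and 10.98 from MNF, the last pair spanning the fibroblast values. It stayed at or under 1.06 TPM in pHep, ESC and ESC_EPC.

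Hoxb9, a thoracic gene, was 49.8, 43.3 and 51.3 TPM in MEF and 21.1 and 22.6 in MNF. It remained measurable in ciEPC, at 0.37 to 15.8 (median 3.55) from MEF and 9.08 and 6.54 from MNF. The highest of these MEF_ciEPC values, 15.8, was the passage 22 library of series 2, and ESC held 8.36 and 15.5. MNF_ciHep had 74.2 and 26.0, MEF_ciHep 0.73, 1.0 and 0.58, ESC_EPC 8.19 and 4.79, and pHep 0 in both. The MNF_ciHep pair thus lay above both MNF libraries.

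Hoxc6, of the thorax and forelimb level, had the highest group mean of any member: 83.8 and 96.2 TPM in MNF, above 39.2, 44.3 and 68.1 in MEF. It was 1.31 to 11.01 (median 2.87) in MEF_ciEPC, 4.01 and 3.55 in MNF_ciEPC, and 5.19 and 0.99 in ESC_EPC. It was 56.5 and 24.0 in MNF_ciHep, below both MNF libraries, but 0.52, 1.10 and 1.17 in MEF_ciHep and 0 in pHep. Hoxd8, of the trunk, was 53.6 and 43.5 TPM in MNF against 12.9, 12.5 and 14.8 in MEF. It was 0 to 2.92 (median 0.565) in MEF_ciEPC and 1.44 and 3.24 in MNF_ciEPC. In MNF_ciHep it was 14.5 and 10.7, below MNF without overlap, and in MEF_ciHep 0, 1.10 and 0.37.

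**Figure D3:**
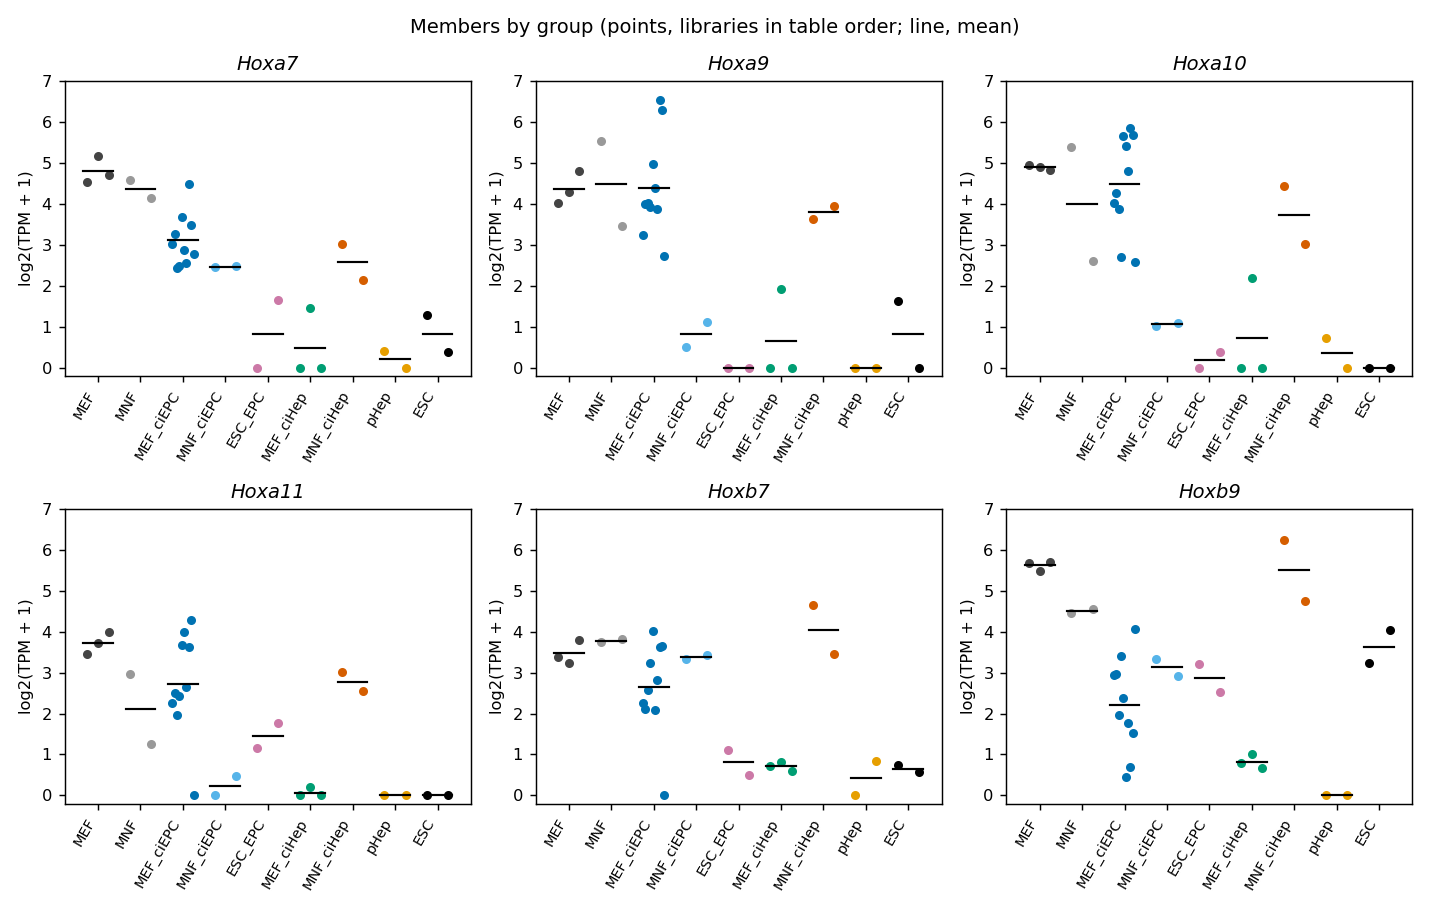
Level, log2(TPM + 1), of Hoxa7, Hoxa9, Hoxa10, Hoxa11, Hoxb7 and Hoxb9 in every library of the 9 groups, a point per library and a line at each group mean. Hoxb9 is high in both fibroblast groups and in MNF_ciHep and at 0 in pHep, whereas Hoxa9 (up to 91.3 TPM) and Hoxa10 (up to 56.9 TPM) in some MEF_ciEPC libraries exceed every MEF library.

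Tests were made on counts with edgeR across all 16061 genes that passed a filter on low counts, 36 members among them (Hoxb1, Hoxd1 and Hoxc12 did not pass). Calls required a change of at least 2-fold and an adjusted p (Benjamini-Hochberg) under 0.05. Differences are log2 values from that fit with their standard errors. Where a group had no counts the fold is a bound against 3 counts over the group, and with 1 to 3 counts it is a ratio with an exact 95% counting interval. Wherever edgeR called 0 members in a direction, DESeq2 and limma on log2(TPM + 1) and log2(TPM + 0.1) also called 0, except against pHep and between ESC_EPC and ESC, where the counts are given.

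A few members differed between the fibroblasts of the 2 sources. Against MEF, MNF had 3 members called higher (8.60% of all genes tested were called higher) and 5 lower (7.81% of all genes). As shares of the 39 members these are 7.69% and 12.8%, not far from the shares of all genes, and the difference from those was not tested. The 3 higher members carry numbers 4 to 8 and the 5 lower members numbers 9 to 13, an order that was not tested. With limma on log2(TPM + 0.1) 0 were higher, and with each replicate left out in turn 0 to 2. Hoxd4, which acts in the neck, was 26.0 and 14.9 TPM in MNF and 2.09, 2.29 and 6.59 in MEF, higher by 2.33 ± 0.70 (edgeR adjusted p = 0.023). Hoxd8 was higher by 1.81 ± 0.48 (adjusted p = 0.012). Hoxc8, a thoracic gene, was 52.7 and 67.7 TPM in MNF and 21.04, 22.5 and 23.9 in MEF, higher by 1.33 ± 0.43 (adjusted p = 0.033). None of these 3 overlapped between the groups.

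The 5 genes called lower in MNF were Hoxd13, Hoxa13, Hoxd11, Hoxd12 and Hoxb9, and a shared body position among them was not tested. Hoxd13, needed for digits, was 7.90, 9.38 and 27.03 TPM in MEF and 0 in both MNF libraries, at least 59.3-fold lower (edgeR adjusted p = 0.00028). Hoxa13, which acts with it in the hand and foot, was 3.89, 5.59 and 6.36 TPM in MEF and 0 in MNF, at least 15.2-fold lower (adjusted p = 0.00098). Hoxd11, of the forearm level, was 8.28, 7.27 and 11.6 TPM in MEF and 0 and 0.39 in MNF, a 78.4-fold ratio with an interval of 13.7 to 3128 (adjusted p = 0.0017). Hoxd12 was also at 0 in MNF, at least 10.1-fold lower (adjusted p = 0.022), and Hoxb9 had a log2 difference of -1.20 ± 0.35 (adjusted p = 0.021). Hoxd12 had counts in MEF alone of the 9 groups, so it passed the count filter through MEF. It could only be called lower against MEF, here and in the MEF_ciEPC and MEF_ciHep counts below. Hoxd13, Hoxa13 and Hoxd11 had counts in other groups but reached the level of the filter in MEF alone. They were thus tested because they were high in MEF, which favours calls of lower against MEF here and below. The calls of Hoxd13, Hoxa13 and Hoxd11 held in all 17 alternatives run for them, while Hoxc8 lost its call in 8 of 18 and Hoxd4 and Hoxb9 in 7. Hoxd12 lost its call in 3 of 13.

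The MNF libraries differed from each other at the same end of the clusters. For 8 members numbered 9 to 13, the level in replicate 1 was a median 2.66 times that in replicate 2 (0.933 to 8.11), against 1.05 for 14 members numbered 4 to 8 and 0.858 for 6 numbered 1 to 3. Hoxa10 was 41.2 TPM in replicate 1 and 5.08 in replicate 2, and Hoxa9 45.3 and 9.95. The spread of these high-numbered genes in MNF enters every comparison below that uses MNF.

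**Figure D4:**
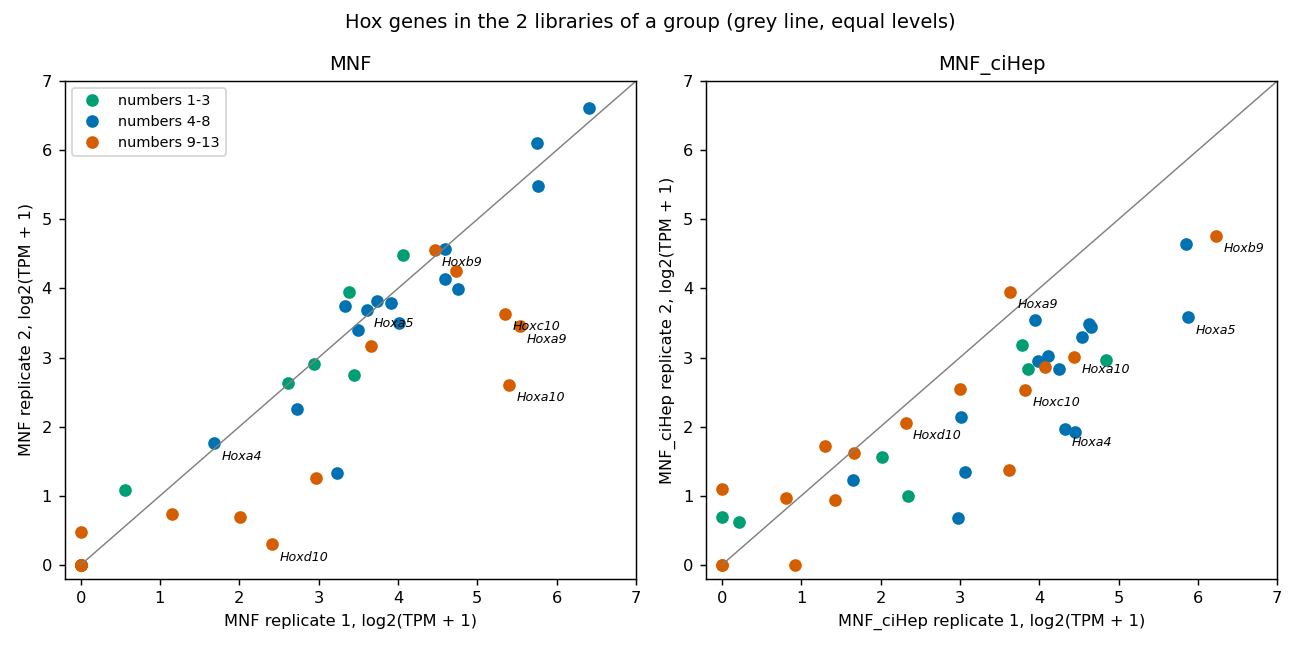
Hox genes in replicate 2 against replicate 1 of MNF (left) and of MNF_ciHep (right), log2(TPM + 1), coloured by number, with a grey line of equal levels. In MNF the genes numbered 9 to 13 lie mostly under the line (median ratio 2.66) and those numbered 4 to 8 lie along it (1.05), and in MNF_ciHep most genes lie under it.

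From fibroblast to ciEPC the clusters fell broadly in both lines. MEF_ciEPC had 30 members called lower than MEF (15.8% of all genes) and 1 higher (17.6% of all genes), and the median member difference was -3.54 against 0.12 for all genes. The 30 comprised 8 of Hoxa, 7 of Hoxb, 7 of Hoxc and 8 of Hoxd. Without the passage 22 library of series 2 there were 29, and without the passage 2 library of series 1 again 30. MNF_ciEPC had 29 members called lower than MNF (21.9% of all genes) and 3 higher (18.4% of all genes), with a median of -4.31, or -4.22 with genes at 0 taken at their bound, against 0 for all genes. In both lines the lower members included 6 numbered 1 to 3 and 14 numbered 4 to 8. The 20 fibroblast markers moved with them, and their part was not tested: their sum was 26741 to 29055 TPM in MEF and 985 to 2745 in MEF_ciEPC, and 42987 to 45785 in MNF and 800 to 1002 in MNF_ciEPC. The median member kept 9.36% of its MEF level in MEF_ciEPC, over 34 members at 1 TPM or more in MEF, and the median fibroblast marker 2.01%. In the MNF line these were 4.41% (30 members) and 0.133%.

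Hoxd11 was at 0 in all 10 MEF_ciEPC libraries, at least 73.3-fold lower than in MEF. Hoxb5, a foregut and neck gene, was 4.39, 6.57 and 7.48 TPM in MEF and 0 to 0.84 (median 0) in MEF_ciEPC, an 87.1-fold ratio (23.3 to 733). Hoxd13 was 0 to 1.24 TPM (median 0) in MEF_ciEPC, below every MEF library, a log2 difference of -5.70 ± 0.85 (edgeR adjusted p = 9.9e-05). The 4 leading genes also fell, with no overlap between the ranges given above. Their differences were -4.01 ± 0.42 for Hoxc6 (adjusted p = 3e-06), -3.61 ± 0.40 for Hoxb9 (adjusted p = 4.3e-06), -4.27 ± 0.68 for Hoxa5 (adjusted p = 0.00011) and -3.75 ± 0.60 for Hoxd8 (adjusted p = 0.00013). Hoxa7 was called at -1.82 ± 0.63 (adjusted p = 0.028), from 22.3, 35.1 and 25.2 TPM in MEF to 4.43 to 21.5 (median 6.72) in MEF_ciEPC. It lost this call in 4 of 18 alternatives (adjusted p 0.0026 to 0.35).

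A block of the Hoxa cluster did not pass the test in MEF_ciEPC. Hoxa9, used in the lower trunk and in blood progenitors, was 15.3, 18.6 and 26.8 TPM in MEF and 5.68 to 91.3 (median 15.1) in MEF_ciEPC, a difference of 0.47 ± 0.70 (edgeR adjusted p = 0.61). Hoxa10, of the lumbar region and uterus, was 29.8, 28.8 and 27.5 TPM in MEF and 4.95 to 56.9 (median 22.5) in MEF_ciEPC, a difference of -0.21 ± 0.75 (adjusted p = 0.84). Hoxa11, of the forearm and uterus, was 10.0, 12.2 and 14.9 TPM in MEF and 0 to 18.4 (median 4.93) in MEF_ciEPC, a difference of -0.83 ± 0.58 (adjusted p = 0.26). The MEF_ciEPC range enclosed the MEF values of all 3. Together they made up 12.3 ± 0.63% of Hox TPM in MEF (SD, n = 3) and 46.0 ± 19.9% in MEF_ciEPC (14.7 to 72.9% over 10 libraries, mean 49.4% without the passage 22 library of series 2).

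Hoxa9 and Hoxa10 differed widely between the MEF_ciEPC libraries. Hoxa9 in series 1 was 8.44, 15.0, 15.2, 14.1, 30.7 and 19.8 TPM at passages 2, 3, 4, 6, 10 and 22, and in series 2 it was 13.8, 91.3, 77.6 and 5.68 at passages 1, 5, 10 and 22. Hoxa10 was 15.3, 18.1, 13.8, 5.48, 49.2 and 41.4 TPM in series 1, and 27, 56.9, 50.1 and 4.95 in series 2. In series 2, both were highest at passages 5 and 10 and lowest in the passage 22 library, the one with high Pou5f1.

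Hoxb7 and Hoxc13 were not called either. Hoxb7, of the trunk, was 9.48, 8.46 and 12.8 TPM in MEF and 0 to 15.2 (median 5.51) in MEF_ciEPC, a difference of -0.69 ± 0.44 (edgeR adjusted p = 0.22). The single member called higher was Hoxb13, a tail-end gene also known from the prostate: 0, 0 and 0.26 TPM in MEF and 0.38 to 4.15 (median 2.76) in MEF_ciEPC, a 27.2-fold ratio (4.71 to 1090, adjusted p = 0.0014). Each MEF_ciEPC library exceeded each MEF library, at low levels.

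In the MNF line the same Hoxa block was among the lower genes. Hoxa9 went from 45.3 and 9.95 TPM in MNF to 0.43 and 1.16 in MNF_ciEPC, a difference of -5.90 ± 1.12 (edgeR adjusted p = 0.00059). Hoxa10 went from 41.2 and 5.08 to 1.03 and 1.14, a difference of -4.79 ± 1.09 (adjusted p = 0.0019), and Hoxa11 from 6.83 and 1.39 to 0 and 0.38, a 27.1-fold ratio (7.05 to 231, adjusted p = 0.0013). No values overlapped. Hoxc4, of the neck to thorax, was 23.2 and 22.7 TPM in MNF and 0 in both MNF_ciEPC libraries, at least 91.9-fold lower (adjusted p = 5.9e-06). Hoxa2, which patterns the hindbrain and the hyoid arch, was 5.10 and 5.21 and then 0, at least 18.0-fold lower, and Hoxa5 was lower by a 127-fold ratio (22.3 to 5072).

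In this line the differences were -4.48 ± 0.46 for Hoxc6, -4.78 ± 0.64 for Hoxd8 and -1.66 ± 0.40 for Hoxb9 (edgeR adjusted p = 0.0026). Hoxb7 was not called: 12.3 and 13.1 TPM in MNF, 9.09 and 9.75 in MNF_ciEPC, a difference of -0.28 ± 0.48 (adjusted p = 0.65). The 3 members called higher all had no counts in MNF and low levels in MNF_ciEPC: Hoxb13 at 1.89 and 2.15 TPM (at least 6.38-fold higher), Hoxd13 at 1.11 and 0.48 (at least 2.84-fold) and Hoxa13 at 0.43 and 0.66 (at least 1.88-fold). Calls use the fitted difference, so the bound of Hoxa13 can lie under the 2-fold requirement. Hoxa13 lost its call in 7 of 15 alternatives and Hoxd13 in 4 of 15, while Hoxb13 kept it in all 16. Hoxb13 was the 1 member called higher in both lines.

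**Figure D5:**
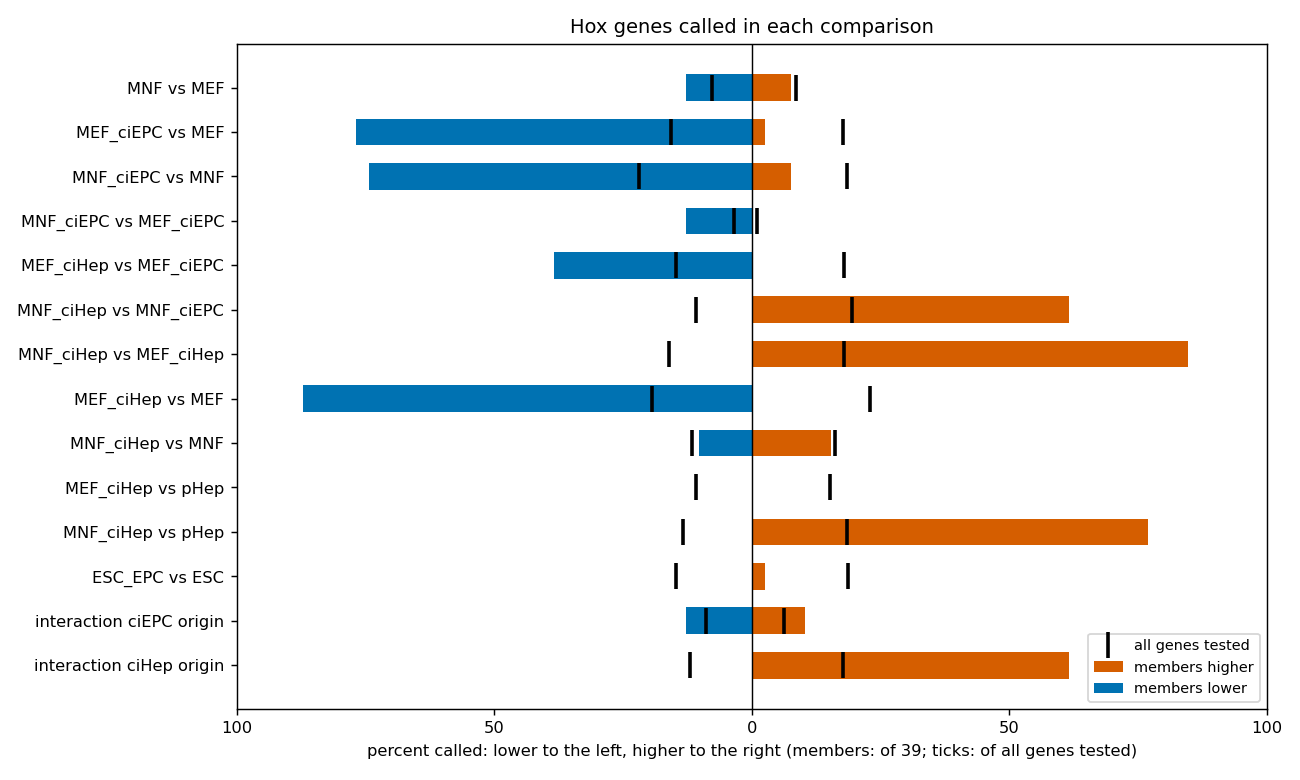
Percent of the 39 Hox genes called higher (right) and lower (left) in each of 14 comparisons, with black ticks at the percent of all genes tested that were called. The bars to the left for MEF_ciEPC against MEF (30 genes) and MNF_ciEPC against MNF (29) and to the right for MNF_ciHep against MEF_ciHep (33) run far past the ticks, and MEF_ciHep against pHep has no bar.

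Whether the fibroblast-to-ciEPC change differed between origins was tested as an interaction, the MNF line's change minus the MEF line's. It called 4 members higher (6.16% of all genes) and 5 lower (8.93% of all genes). Hoxd13 (10.88 ± 1.70, edgeR adjusted p = 0.0013), Hoxa13 (6.43 ± 1.68, adjusted p = 0.019), Hoxd11 (8.09 ± 2.38, adjusted p = 0.040) and Hoxb9 (1.95 ± 0.53, adjusted p = 0.022) were on the higher side; the first 3 had 0 or near 0 counts in MNF and so could not fall further there, and these fitted sizes are not bounds. On the lower side were Hoxc4 (-6.98 ± 1.38, adjusted p = 0.0047), Hoxa9 (-6.36 ± 1.32, adjusted p = 0.0062), Hoxa10 (-4.58 ± 1.30, adjusted p = 0.026), Hoxa11 (-3.71 ± 1.14, adjusted p = 0.038) and Hoxb3 (-2.26 ± 0.73, adjusted p = 0.04997). Hoxc4 had 0 counts in MNF_ciEPC, so its fitted size is likewise no bound. Hoxc4 and Hoxd13 kept their call in every alternative run, and Hoxa9 lost it in 1 of 22. The call was lost for Hoxd11 in 11 of 21, for Hoxa13 in 4 of 20 and for Hoxb9 in 8 of 22. It was lost for Hoxa10 in 9, Hoxa11 in 12 and Hoxb3 in 15 of 22. Without MNF replicate 1, the library with more Hoxa10 and Hoxa11, the difference of Hoxa10 was -2.60 (adjusted p = 0.25) and that of Hoxa11 -2.11 (adjusted p = 0.28).

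Compared directly, MNF_ciEPC had 5 members called lower than MEF_ciEPC (3.49% of all genes) and 0 higher (0.971% of all genes; at an unadjusted edgeR p under 0.05 the counts were 6 lower and 0 higher). The Hoxa block led: Hoxa9 was lower, with a difference of -5.94 ± 1.12 (adjusted p = 0.0096), Hoxa10 at -4.90 ± 1.09 (adjusted p = 0.020) and Hoxa11 by a 47.3-fold ratio (12.9 to 393, adjusted p = 0.0059). The highest MNF_ciEPC values of Hoxa9 and Hoxa10, 1.16 and 1.14 TPM, lay below the lowest MEF_ciEPC values, 5.68 and 4.95. Hoxc4 was at least 8.88-fold lower (adjusted p = 0.011) and Hoxb3 lower, with a difference of -2.41 ± 0.61 (adjusted p = 0.038). No member was called without MNF_ciEPC replicate 1 and 1 was without replicate 2, and the comparison crosses the read-length classes.

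At the ciHep stage the 2 lines went opposite ways. MEF_ciHep had 15 members called lower than MEF_ciEPC (14.8% of all genes) and 0 higher (17.8% of all genes; 1 at an unadjusted edgeR p under 0.05, and 1 called when the 10 libraries entered separately). The 15 were 6 of Hoxa, 4 of Hoxb and 5 of Hoxc. The block that had not passed the test in MEF_ciEPC was among them. Hoxa9 was 0, 2.79 and 0 TPM in MEF_ciHep (-4.59 ± 0.89, adjusted p = 0.00087), Hoxa10 0, 3.53 and 0 (-4.00 ± 0.90, adjusted p = 0.0022) and Hoxa11 0, 0.15 and 0 (85.6-fold ratio, 15.2 to 3398, adjusted p = 0.00016). Only MEF_ciHep replicate 2 held more than 1 TPM of Hoxa9 or Hoxa10. Hoxb7 and Hoxa7 were lower, with a difference of -3.04 ± 0.57 and -2.94 ± 0.75.

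Against MEF, MEF_ciHep had 34 members called lower (19.3% of all genes) and 0 higher (22.9% of all genes; also 0 at an unadjusted edgeR p under 0.05). Hoxb2, a hindbrain gene, was 22.2, 15.2 and 19.8 TPM in MEF and 0 in all 3 MEF_ciHep libraries, at least 61.9-fold lower. Hoxd11 (at least 29.9-fold) and Hoxd10 (at least 19.7-fold) were also at 0 in MEF_ciHep. Hoxb9 was lower, with a difference of -5.93 ± 0.45, and Hoxc6 likewise at -5.63 ± 0.47. The 2 tested members not called were Hoxb13 and Hoxc13, both low in MEF. For 34 members at a mean of 1 TPM or more in MEF, the MEF_ciHep level was a median 1.61% of it, and for 20 fibroblast markers it was 0.309%.

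In the MNF line 24 members were called higher in MNF_ciHep than in MNF_ciEPC (19.5% of all genes) and 0 lower (10.8% of all genes; also 0 at an unadjusted edgeR p under 0.05). They were 8 of Hoxa, 7 of Hoxb, 6 of Hoxc and 3 of Hoxd. Without MNF_ciHep replicate 1, the library with the higher Hox sum, 13 were called. Hoxc4 was 23.7 and 10.2 TPM in MNF_ciHep and 0 in MNF_ciEPC, at least 68.7-fold higher. Hoxa5 had a 477-fold ratio (84.6 to 18928). Hoxa3, of the pharyngeal arches and thymus, was at least 6.14 TPM in both MNF_ciHep libraries against 0 and 0.15 in MNF_ciEPC, a 173-fold ratio (30.1 to 6943). Hoxb9 was higher by 2.88 ± 0.40, and Hoxb7 was 24.1 and 9.87 TPM and was not called (1.07 ± 0.48, adjusted p = 0.088).

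The resulting gap between the ciHep groups was wide: MNF_ciHep had 33 members called higher than MEF_ciHep (17.8% of all genes) and 0 lower (16.1% of all genes; also 0 at an unadjusted edgeR p under 0.05). Without MNF_ciHep replicate 1 there were 18. Hoxb2 was 27.8 and 6.78 TPM in MNF_ciHep and 0 in MEF_ciHep, at least 53.2-fold higher. Hoxb6, a trunk gene, was 18.1 and 6.14 TPM against 0, 0 and 0.50, a 111-fold ratio (19.1 to 4474), and Hoxa5 had a 216-fold ratio (58.9 to 1794). Hoxb9 was higher by 5.94 ± 0.47 (adjusted p = 4.1e-07). The ciEPC-to-ciHep change differed between origins for 24 members, all higher in the MNF line (17.7% of all genes), with 0 lower (12.0% of all genes; also 0 at an unadjusted edgeR p under 0.05). Hoxc4 (fitted value 11.50, edgeR adjusted p = 3.8e-05), Hoxa11 (11.33) and Hoxa5 (10.79) were among them, and none of the 3 lost its call in 22 alternatives. Each had 0 to 2 counts in MNF_ciEPC, so these fitted values depend on the prior count and are no measure of size.

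The fibroblast and hepatocyte markers given above moved with these results in MNF_ciHep, and their part in them was not tested. For 30 members at a mean of 1 TPM or more in MNF, the MNF_ciHep level was a median 69.8% of it (109% in replicate 1 and 40.6% in replicate 2). For the 20 fibroblast markers the median was 31.9% (42.5% and 15.6%). Col1a1 was 412 and 203 TPM in MNF_ciHep and 9187 and 9471 in MNF. Of the 30 members, 19 were at 50% of the MNF level or more.

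MNF_ciHep and MNF also differed in some members. MNF_ciHep had 6 members called higher than MNF (16.2% of all genes) and 4 lower (11.6% of all genes), shares near or below those of all genes, with a median difference of -0.28 against 0.04. Hoxb9 was higher by 1.22 ± 0.38 (edgeR adjusted p = 0.020), a call lost in 8 of 17 alternatives. Hoxa5 was called at 1.66 ± 0.63 (adjusted p = 0.048), but without MNF_ciHep replicate 1 the difference was -0.0496 (adjusted p = 1). Hoxb13, Hoxd13 and Hoxa13 were at 0 in MNF and at least 7.59-fold, 5.25-fold and 3.31-fold higher. Of 15 alternatives each, Hoxa13 lost its call in 5, Hoxd13 in 4 and Hoxb13 in 0.

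The 4 lower members were Hoxd8, Hoxd3, Hoxc8 and Hoxd4. Hoxd8 was lower, with a difference of -2.59 ± 0.57 (edgeR adjusted p = 0.0029). Hoxd3, of the neck, was 4.07 and 0.99 TPM against 9.85 and 5.71 (-2.50 ± 0.84, adjusted p = 0.038). Hoxc8 was 14.8 and 6.76 TPM against 52.7 and 67.7 (-2.37 ± 0.52, adjusted p = 0.0026), and Hoxd4 7.36 and 1.54 against 26.0 and 14.9 (-2.21 ± 0.82, adjusted p = 0.044). Of 16 alternatives each, Hoxd3 lost its call in 8 and Hoxd4 in 6. Hoxc8, Hoxd4 and Hoxd8 are the 3 members that were higher in MNF than in MEF. The 2 comparisons share the MNF libraries, and this comparison crosses the read-length classes.

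Against hepatocytes of adult liver, MEF_ciHep had 0 members called in either direction (15.1% of all genes were higher and 10.8% lower). At an unadjusted edgeR p under 0.05, 4 were higher and 1 lower. DESeq2 and limma on log2(TPM + 1) called 0, and limma on log2(TPM + 0.1) called 3 higher and 1 lower. In pHep 29 to 34 of the 39 members were at 0 in a library, and in MEF_ciHep 12 to 29. MNF_ciHep had 30 members called higher than pHep (18.4% of all genes) and 0 lower (13.4% of all genes; also 0 at an unadjusted edgeR p under 0.05). Hoxb9, Hoxc6 and Hoxc4 were at 0 in both pHep libraries and at least 89.2-fold, 43.5-fold and 24.7-fold higher in MNF_ciHep.

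In the stem cell groups most of the Hox signal came from high-numbered genes. Genes numbered 9 to 13 held 71.2% of the Hox TPM in ESC and 77.9% in ESC_EPC. In ESC this class included Hoxb9 at 8.36 and 15.5 TPM, and Hoxc4, outside it, was 4.70 and 4.59 TPM. Hoxc13, known for hair and nails, was 29.9 and 25.2 TPM in ESC_EPC, 51.0 ± 1.63% of all its Hox TPM (SD, n = 2), and 13.3 and 8.35 TPM in ESC. These values exceeded every fibroblast library, where Hoxc13 was at most 1.23 TPM. Its difference between ESC_EPC and ESC was 1.22 ± 0.56 (edgeR adjusted p = 0.094). Hoxc12, its neighbour, was 7.66 and 3.42 TPM in ESC and, in MEF_ciEPC, reached 6.14 in the passage 22 library of series 2, which also had Hoxc13 at 13.3.

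Only Hoxa11 was called between ESC_EPC and ESC, 1 member higher (18.6% of all genes), with 0 lower (14.7% of all genes; 3 higher and 3 lower at an unadjusted edgeR p under 0.05). DESeq2 called 1 higher and 1 lower, and limma 3 and 1 with either pseudocount. Hoxa11 was 1.22 and 2.40 TPM in ESC_EPC and 0 in ESC, at least 5.03-fold higher (adjusted p = 0.0083). Hoxb9 (-1.02 ± 0.41, adjusted p = 0.058) and Hoxc4 (-1.72 ± 0.67, adjusted p = 0.053) did not pass.

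Partners and inputs of the Hox proteins were examined as lists of known genes, none of them tested as a set. Of all genes tested, 17.6% rose and 15.8% fell in MEF_ciEPC against MEF, and 18.4% and 21.9% in MNF_ciEPC against MNF. In MNF_ciHep 19.5% rose and 10.8% fell against MNF_ciEPC, and 16.2% and 11.6% against MNF. The list counts stand beside these shares, and those of MEF_ciEPC are given only with the passage 22 library of series 2 included. Of 11 TALE genes, the Pbx, Meis, Pknox and Tgif cofactors that bind DNA with Hox proteins, 3 fell and 0 rose in MEF_ciEPC against MEF, with a list median of -0.51. The differences of Meis2 and Pknox2 were -2.16 ± 0.33 and -2.44 ± 0.64. In MNF_ciEPC against MNF 6 fell and 1 rose (median -1.27), with Meis2 at -4.17 ± 0.40, Meis1 at -3.19 ± 0.35 and Tgif2 at 2.93 ± 0.45. In MNF_ciHep against MNF_ciEPC 5 rose and 1 fell (median 0.65), among the risers Meis2 (5.23 ± 0.41), Meis1 (1.87 ± 0.35) and Pbx2 (1.34 ± 0.20).

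Of 18 inputs (Cdx and Evx factors, retinoic acid genes and others), 16 were tested. In MEF_ciEPC against MEF 4 rose and 7 fell, and in MNF_ciEPC against MNF 3 rose and 7 fell. Crabp2, a retinoic acid carrier, and Rarg, a receptor, fell in both lines. Crabp2 was 53.9, 68.9 and 101 TPM in MEF and 0 to 4.39 in MEF_ciEPC, and 34.3 and 40.4 in MNF and 0 in MNF_ciEPC, and the differences of Rarg were -4.53 ± 0.50 and -5.89 ± 0.59. Cyp26a1, which degrades retinoic acid, rose in both: it was at most 0.34 TPM in the fibroblasts, 556 and 530 TPM in MNF_ciEPC and 150 to 851 TPM in 9 of the MEF_ciEPC libraries, and 0 in the passage 22 library of series 2. In MNF_ciHep against MNF_ciEPC 10 rose and 0 fell (median 3.07). Cyp26b1, another degrading enzyme, reached 583 and 484 TPM (0.38 and 0 in MNF_ciEPC), Crabp2 502 and 135, Rarb, a retinoic acid target, 76.2 and 22.4, and Rarg 78.2 and 52.8. Against MNF, 7 rose and 1 fell in MNF_ciHep.

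Of 20 noncoding genes within the clusters 10 were in the tables and 5 were tested. In MEF_ciEPC against MEF 2 fell, Hoxaas2 (0 TPM in 8 of the 10 MEF_ciEPC libraries) and Hotairm1 (-2.34 ± 0.75), and in MNF_ciEPC against MNF 3 fell. In MNF_ciHep against MNF_ciEPC 4 rose. Among these Hoxa11os lies antisense to Hoxa11, and their reads may not be separable: it was 10.1, 14.8 and 16.8 TPM in MEF, 1.30 to 38.2 in MEF_ciEPC and 1.70 and 1.52 in MNF_ciEPC.

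Chromatin regulators, flanking genes and other regulators of position were counted in the same way, and the shares of all genes given above apply to them. Of 28 Polycomb genes 8 rose and 3 fell in MEF_ciEPC against MEF (median 0.43), with Ezh1 (2.15 ± 0.28), Rybp (1.57 ± 0.21), Cbx7 (2.91 ± 0.42) and Mtf2 (1.65 ± 0.24) rising. Cbx7 was 101 TPM in the passage 22 library of series 2 and 1.14 to 33.8 in the other MEF_ciEPC libraries. It was 1.89 to 3.38 TPM in MEF, so the size of its rise leans on that library. In MNF_ciEPC against MNF 8 rose and 4 fell (median 0.13), with Mtf2 (2.24 ± 0.28) and Ezh2 (1.84 ± 0.28) up and Cbx6 (-5.40 ± 0.59) and Phf1 (-1.70 ± 0.28) down. Of 14 trithorax and H3K27 demethylase genes 2 rose and 0 fell in the MEF line, and 4 rose and 1 fell in the MNF line. Of 15 tested genes flanking the clusters 1 rose and 0 fell in the MEF line, with a median of -0.0027, and 3 rose and 2 fell in the MNF line, with a median of 0, against the Hox medians of -3.54 and -4.31. A list of 26 other homeobox and T-box regulators of position (24 tested) had 14 lower and 4 higher in MEF_ciEPC against MEF, Shox2 (-5.94 ± 0.41) among the lower, and 9 lower and 7 higher in MNF_ciEPC against MNF.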

How the data were processed

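Expression was estimated by the authors on mm10 with RSEM 1.2.4, per the submitters' processing notes. For 28 libraries and 31673 genes the deposited values are RSEM's expected counts, TPM and FPKM. The deposited FPKM values were not used. The aligner, the annotation and the use of strand are not given in the sources used here. Libraries were grouped by title and cell type. The 10 MEF_ciEPC libraries were summed by numbered series to 2 samples, a reading of the titles, and counts were rounded. The quasi-likelihood test of edgeR 4.0.16 (R 4.3.3), with TMM scaling and filterByExpr at a minimum count of 10, was fitted once to 20 samples in 9 groups, with no replicate term. On counts simulated for MEF_ciEPC against MEF it recovered 9 of 63 changes of 2-fold, 54 of 62 of 4-fold and 64 of 65 of 8-fold. For MNF_ciHep against MNF_ciEPC these were 14 of 63, 48 of 61 and 59 of 61. A member not called may therefore have changed by 2-fold. Calls needed a 2-fold change and an adjusted p (Benjamini-Hochberg) under 0.05. The common biological coefficient of variation was 0.249. Bounds took a floor of 3 counts over a group, and exact intervals were Clopper-Pearson at 95%, both covering counting error only. DESeq2 1.42.0 and limma 3.58.1 were alternatives, 13 in all, besides leaving out each of 20 replicates. Values by library were given for the member with the highest group mean in each cluster, and for the 3 largest rises and 3 largest falls called in each comparison with a mean of at least 5 TPM in the higher group. Listed genes that are no members were named for the smallest adjusted p, at most 4 a list. Other members were named after their values were seen. The members and lists were chosen with earlier results of these data known. Results that need certain items are not reported here, and the plots of levels leave out 1 gene for this reason, while counts and sums include it.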

Additional observations from a re-analysis of the deposited data

Results flagged for a closer look

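Among the 10 MEF_ciEPC libraries, 19 Hox levels and cluster sums were examined for a single library far from the others, and 7 had one. Chance gives this in about 1 of 20 independent sets, and 4 of the 7 come from 1 library and related genes. The passage 2 library of series 1 stood highest for Hoxc5 at 14.8 TPM, Hoxc6 at 11.01 TPM, Hoxc8 at 6.15 TPM and the summed Hoxc cluster at 53.8 TPM. In that library the fibroblast markers stood at a median of 9.23% of their MEF level, against 2.01% over the mean of the group. The passage 22 library of series 2 stood highest for Hoxc12 at 6.14 TPM and Hoxc13 at 13.3 TPM. The passage 5 library of series 2 stood highest for Hoxa7 at 21.5 TPM.

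The change from fibroblast to ciEPC differed between the MNF and MEF lines, by edgeR's interaction test, for 4 members on the higher side and 5 on the lower. These are 10.3% and 12.8% of the 39 members, against 6.16% and 8.93% of all genes tested. Among these members were Hoxd13 at 10.88, Hoxd11 at 8.09 and Hoxa13 at 6.43, and Hoxc4 at -6.98, Hoxa9 at -6.36 and Hoxa10 at -4.58, as fitted log2 differences. Hoxd13 and Hoxa13 had 0 counts in MNF and Hoxc4 had 0 in MNF_ciEPC. Hoxd11 had 0 counts in MEF_ciEPC and 1 in each of MNF and MNF_ciEPC. The fitted sizes of these members are therefore no measure of the change. From ciEPC to ciHep the change differed for 24 members, all on the higher side. These are 61.5% of the 39, against 17.7% of all genes called higher. Among these members were Hoxc4 at 11.50, Hoxa11 at 11.33 and Hoxa5 at 10.79, each fitted against groups with few or no counts.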

How the results depend on the processing

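Counts are of members called higher or lower. Where a setting leaves a group with 1 sample, that sample is assumed to vary like the other groups. The cause of the shifts was not tested, apart from the fewer genes tested at the higher minimum count and the fewer samples in fits of the compared groups. Of the counts under alternatives, 446 stayed within 1.5 times the main value and 101 did not. Of the values for single named genes, 760 kept their side of the threshold, 85 lost it, 9 moved and 1 reversed: Hoxa5 in MNF_ciHep against MNF was -0.0496 without MNF_ciHep replicate 1 and 2.37 without replicate 2.

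With limma on log2(TPM + 0.1), MNF against MEF had 0 higher, MNF_ciEPC against MEF_ciEPC 2 lower, MNF_ciHep against MNF 3 higher and 1 lower, MEF_ciHep against pHep 3 and 1, ESC_EPC against ESC 3 and 1, and the ciEPC interaction 1 lower. With limma on log2(TPM + 1), MNF_ciEPC against MNF had 1 higher, MNF_ciHep against MNF 3 higher, ESC_EPC against ESC 3 and 1, and the ciEPC interaction 2 lower. That scale moved the median of all genes by 0.22 in MEF_ciEPC against MEF and by -0.29 in MEF_ciHep against MEF_ciEPC, where the share of all calls that were higher went from 52.6% to 63.4% and from 54.6% to 39.9%. At a minimum count of 50, MNF against MEF had 1 lower, MEF_ciEPC against MEF 0 higher and 16 lower, MNF_ciEPC against MNF 0 and 19, MNF_ciHep against MEF_ciHep 20 higher, MEF_ciHep against MEF 19 lower, MNF_ciHep against MNF 2 and 2, MEF_ciHep against pHep 1 higher, ESC_EPC against ESC 1 lower and the ciEPC interaction 1 higher. With the 10 MEF_ciEPC libraries as separate samples, MNF against MEF had 0 higher and 3 lower, MNF_ciEPC against MEF_ciEPC 2 lower, MEF_ciHep against MEF_ciEPC 1 higher, MNF_ciHep against MNF 3 and 0, and the ciEPC interaction 1 and 2. With only the compared groups in the fit, MNF_ciEPC against MNF had 1 higher, MNF_ciEPC against MEF_ciEPC 3 lower, MEF_ciHep against MEF_ciEPC 8 lower, MNF_ciHep against MEF_ciHep 19 higher, MNF_ciHep against MNF 1 higher and ESC_EPC against ESC 2 lower. MEF_ciHep against pHep had 1 higher with RLE scaling and with no count filter, and ESC_EPC against ESC had 1 lower with RLE scaling and with DESeq2. ESC_EPC against ESC had 2 higher without the passage 22 library of series 2 and with MEF_ciEPC up to passage 5, where the ciEPC interaction had 3 lower. An alternative chosen after seeing the data, without the passage 2 library of series 1, gave 1 lower there in ESC_EPC against ESC.

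No pairing by replicate number was seen: of 73 pairs of samples with the same number, 0 had deviations correlated above 0.1 (-0.163 to 0.085). The check cannot exclude a pairing, since most groups have 2 samples, whose deviations mirror each other. With a replicate block 25 of 256 calls were lost, with 1 higher in MNF against MEF and 2 lower in the ciEPC interaction.

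Leaving out each replicate in turn, MNF against MEF had 0 to 2 higher and 3 to 4 lower, MEF_ciEPC against MEF 1 to 2 higher, MNF_ciEPC against MNF 1 to 2 higher, MNF_ciEPC against MEF_ciEPC 0 to 4 lower, MNF_ciHep against MNF_ciEPC 13 to 25 higher and against MEF_ciHep 18 to 29 higher. MEF_ciHep against MEF had 0 to 1 higher, MNF_ciHep against MNF 1 to 5 higher and 2 to 5 lower, MEF_ciHep against pHep 0 to 1 higher, ESC_EPC against ESC 0 to 1 in either direction, and the ciEPC interaction 1 to 3 higher and 2 to 4 lower. MEF_ciEPC against MEF kept 24 to 27 lower and MNF_ciEPC against MNF 22 to 26.

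The number of members detected was 3 in MEF_ciEPC at 2 TPM, 23 by the group mean and 3 by 5 counts. It was 6 in MNF_ciEPC and 3 in ESC_EPC at 2 TPM, and 11 in ESC_EPC, 4 in MEF_ciHep and 13 in ESC at 0.5 TPM. In MEF_ciHep it was 0 at 2 TPM, 3 by the mean and 0 by 5 counts, in pHep 1 by the mean and in ESC 10 by the mean.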
